A study of Homo sapiens with 16 samples.

Results

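The collagen genes were examined in open chromatin of sorted cells from brain organoids. They were taken as every RefSeq protein-coding gene on chromosomes 1 to 22 and X whose symbol is COL, a number, A and a number, which gave 44 of 19974 genes. ATAC-seq, an assay that reads open chromatin from where the transposase Tn5 cuts, had been run on nuclei from organoids enriched for dorsal telencephalon, the forebrain region that forms the cerebral cortex. All cells came from 1 wild-type dual-reporter line of the established human stem cell line H9, so both populations carried the same insertions. EGFP joined through P2A to the end of SOX2 on one allele marked the SOX2::EGFP+ progenitors. dTomato under the human SYN1 promoter at AAVS1 marked the hSYN1::dTomato+ neurons. Sorting was done on days 40, 60, 90 and 120, and every combination of population and day has 2 libraries, 16 in all. Whether such a pair represents separate cultures is not in the labels, so the spread that p-values rest on, that of these libraries, may be technical.

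Collagens are extracellular proteins whose chains wind into helical trimers. Fibrillar collagens form cables, and FACIT collagens sit on the surface of those fibrils. Type IV collagen, part of the network-forming group, builds the sheets of basement membranes, and transmembrane collagens stay anchored in the plasma membrane. In the developing cortex the end feet of radial glia rest on the basement membrane at the pial surface, and type IV collagen is a main part of that membrane and of the membranes around blood vessels. In mice, type III collagen at the pial surface is a ligand of the receptor ADGRG1. Open chromatin at a collagen gene is a measure of its regulatory DNA, not of its RNA or protein.

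For each library the measure was the length of DNA covered by the authors' peaks over a gene plus 20 kb beyond each of its ends, called the window here. Covered lengths in kb are given unscaled. For the tests, log2 of the covered bases plus 500 was taken and the log2 of the library's total covered bases subtracted, so differences are on that log2 scale, progenitors minus neurons, with the SE of the limma fit. Adjusted p is by Benjamini-Hochberg, across the 18755 genes left by a filter on low values, and a gene was called below 0.05. All 44 collagen genes passed the filter, COL3A1 only through its neuron libraries. The lists held from 67977 to 138432 peaks, covering 36.9 to 103 Mb in progenitors and 54.9 to 104 Mb in neurons, and the read depth behind them is unknown. Progenitor day 120 replicate 2 stood apart with the lowest of these totals. Radial glia markers were higher in progenitors for 6 of 10 genes and neuron markers lower for 6 of 10, with none in the opposite direction in either list.

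The collagen genes lie on 17 chromosomes and are long, with a median of 145 kb against 26.6 kb over all genes tested. Their windows held a median of 5.14 kb of peaks, against 3.4 kb over all genes. Per window length, the window of the cartilage gene COL9A3 was the most covered in both populations, with 9.28% in progenitors and 9.07% in neurons. COL2A1 and COL27A1, fibrillar collagens of cartilage, came next in progenitors, with 7.94% and 7.25%, and COL9A1 and COL16A1 in neurons, with 7.88% and 7.59%. The sparsest in progenitors was COL3A1, with 0.0915% against 1.16% in neurons, and the sparsest in neurons was the beaded-filament gene COL6A5, with 0.334% in progenitors and 0.364% in neurons. Many windows also take in other genes, so these shares are not those of the collagen gene alone. The COL9A3 window holds MRGBP, OGFR and TCFL5. Its flanks had 2.9 of 6.02 kb in progenitors and 3.34 of 5.89 kb in neurons. The COL16A1 window holds HCRTR1 and PEF1, with 3.13 of 6.12 kb in the flanks in progenitors and 3.36 of 6.96 kb in neurons. Neighbouring collagen genes share DNA in their windows and are not independent. COL4A1 and COL4A2 share 39.9 kb, as do COL4A3 and COL4A4, COL4A5 and COL4A6 share 39.6 kb, COL9A1 and COL19A1 37.4 kb, COL3A1 and COL5A2 20.8 kb, and COL6A5 and COL6A6 8.13 kb.

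Over the 4 days together, 18 of the 44 collagen loci differed between the populations (40.9%), where 21% of all genes tested did. More open chromatin in progenitors was called at 11 of them (25.0%, against 9.90% of all genes), and less at 7 (15.9%, against 11.1% of all genes). The median difference over the 44 loci was 0.09, against -0.05 over all genes, and 28 differences were above 0. With lists cut to equal length the median was -0.12 over the 43 collagen loci that then passed the filter, against -0.06 over 17586 genes. Called genes were longer than others throughout the genome: the median length was 158 kb for called and 115 kb for other collagen genes, and 49.8 kb for called and 23.2 kb for other genes. The part of length in the share of collagen calls was not tested. Without the scaling to total covered length, 5 loci were called higher in progenitors and 2 lower, a share of 71.4% higher against 61.1% with it.

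**Figure D1:**
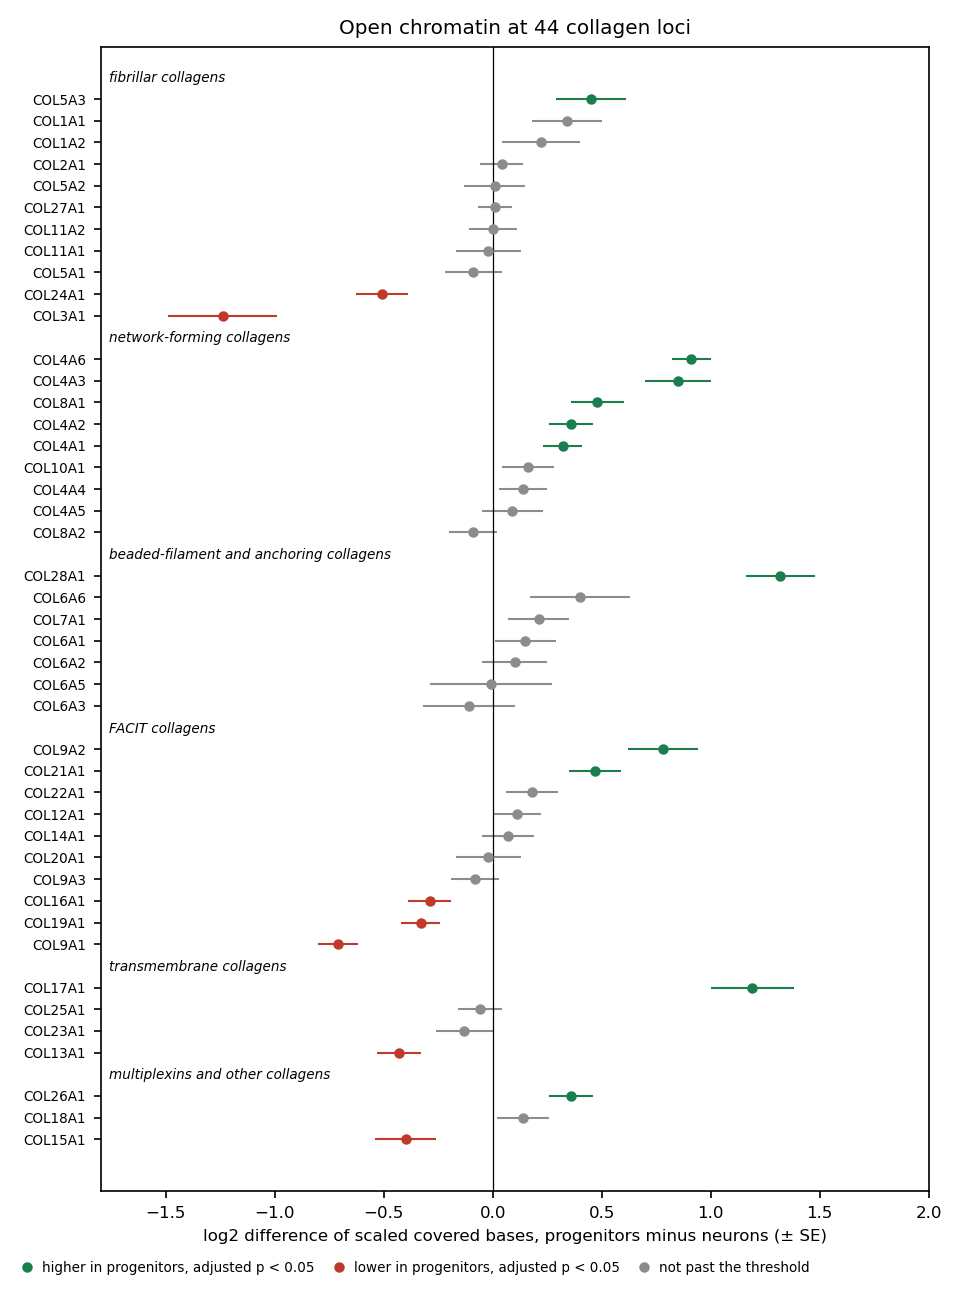
Difference in covered bases between progenitors and neurons at each of the 44 collagen loci, on the log2 scale after scaling to the total covered length, in 6 structural groups. Points are estimates of the limma fit over 16 libraries, bars are SE, and colours mark the 11 loci called higher and the 7 called lower in progenitors; COL28A1, COL17A1 and COL4A6 lie farthest to the right and COL3A1 farthest to the left.

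Among the 9 network-forming collagens 5 were higher in progenitors and none was lower, with a median difference of 0.32. Their covered bases were summed over windows, so DNA shared by neighbours counted for each gene. Per Mb of all covered DNA, the sums were 791 to 1001 in progenitor and 493 to 708 in neuron libraries. These ranges did not overlap. Of the other gene groups set out here, radial glia markers also separated (1258 to 1636 in progenitor and 857 to 1238 in neuron libraries), and the rest overlapped. The share among gene groups at large was not determined. COL4A6 alone held 17.4 of a mean 70.9 kb in progenitors and 8.82 of 50.5 kb in neurons. The 11 fibrillar collagens gave 1 higher and 2 lower, with a median of 0.01, and the 10 FACIT collagens 2 higher and 3 lower, with a median of 0.03. Of the 7 beaded-filament and anchoring collagens 1 was higher, of the 4 transmembrane collagens 1 was higher and 1 lower, and of the 3 multiplexins and other collagens 1 was higher and 1 lower. The groups hold 3 to 11 genes each, some of them neighbours, so these counts describe the loci and were not tested as sets.

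Type IV collagen genes lie head to head in pairs, each pair sharing a control region. COL4A6 (chromosome X, 108155614 to 108439458, hg38), which encodes a chain found in a restricted set of basement membranes, had the smallest adjusted p of the collagen genes. Its window held 19.8 and 21.4 kb of peaks in progenitors at day 40, 18.6 and 19.1 kb at day 60, 20.5 and 21.3 kb at day 90, and 12.5 and 6.28 kb at day 120. In neurons it held 12.1 and 10.2 kb at day 40, 10.6 and 5.73 kb at day 60, 12 and 10.8 kb at day 90, and 5.65 and 3.49 kb at day 120. Progenitors lay above neurons in every library of every day, although the day 120 progenitor libraries overlapped the earlier neuron libraries. The mean was 17.4 ± 5.32 kb in progenitors and 8.82 ± 3.33 kb in neurons (SD, n = 8 each), a difference of 0.91 ± 0.09 (limma adjusted p = 1.31e-07). Most of this open chromatin lay in the gene body, with 16.4 kb in progenitors and 7.96 kb in neurons, and little in the flanks, with 1.02 kb in progenitors and 0.857 kb in neurons.

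The map of peaks along COL4A6 shows where the populations differed. At the gene start, which has 2 listed positions, all 8 progenitor and all 8 neuron libraries had a peak. Of the 48 regions in the window, 11 were present in at least 4 more progenitor than neuron libraries, and 0 in at least 4 more neuron than progenitor libraries. The share of all regions that differ by as much was not determined. The same peaks gave the difference of the locus, so these counts show its position and are no separate support. Regions here are the union of all peaks, tested by Fisher's exact test on the number of libraries with a peak, adjusted over 182575 regions. At COL4A6 2 regions were called, 37.9 and 99.1 kb into the gene from its nearest listed start (chrX:108399017-108400508 and chrX:108337522-108339332), each with a peak in 8 of 8 progenitor and 1 of 8 neuron libraries (Fisher's exact test, adjusted p = 0.0323).

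**Figure D2:**
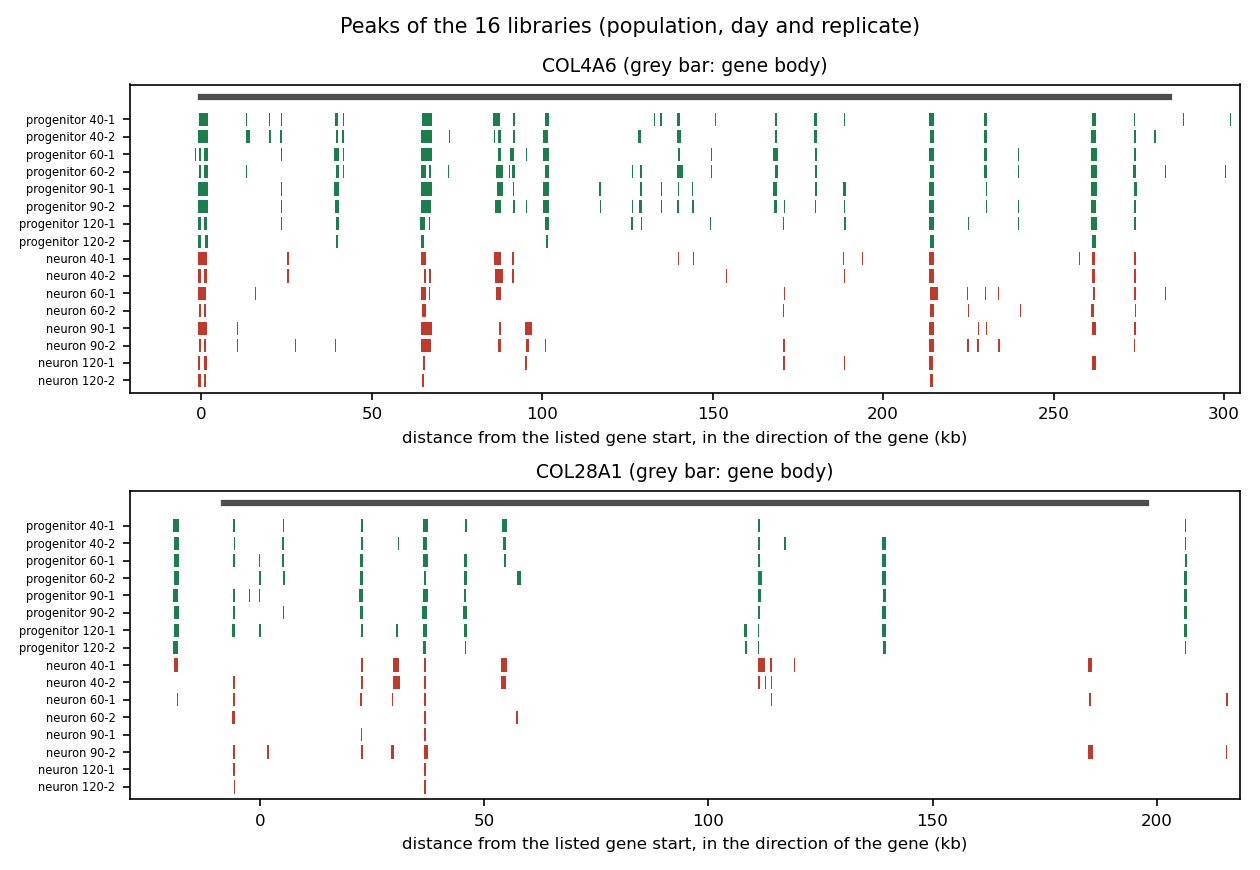
Peaks of the 16 libraries along COL4A6 and COL28A1, with distance in kb from the listed gene start (for COL4A6 the outermost of 2) in the direction of the gene; each row is a library, 8 progenitor rows (green) above 8 neuron rows (red), and the grey bar is the gene body. Peaks at the COL4A6 start stand in every library, whereas 2 regions farther into the gene have a peak in all 8 progenitor libraries and 1 neuron library.

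COL4A5, the partner of COL4A6 and a chain of kidney and other basement membranes, did not pass the threshold. It had 3.65 ± 1.81 kb in progenitors against 3.26 ± 1.52 kb in neurons (SD, n = 8 each), a difference of 0.09 ± 0.14 (adjusted p = 0.723), which turned to -0.25 without flanks. The pair COL4A3 and COL4A4, chains of the kidney filter, likewise had 1 called gene. COL4A3 (chromosome 2, 227164624 to 227314792) had 5.98 ± 1.87 kb in progenitors against 3.02 ± 1.18 kb in neurons, a difference of 0.85 ± 0.15 (limma adjusted p = 0.000149). Its partner COL4A4 had 6.4 ± 1.75 kb in progenitors against 5.68 ± 2.19 kb in neurons, a difference of 0.14 ± 0.11 (adjusted p = 0.426), which turned to -0.37 with lists cut to equal length. At COL4A3 the difference lay in the gene body, with 3.59 kb in progenitors and 0.857 kb in neurons, while the flanks held 2.38 kb in progenitors against 2.16 kb in neurons. A region 81.3 kb from its listed start (chr2:227245958-227247011) had a peak in 8 of 8 progenitor and 0 of 8 neuron libraries (Fisher adjusted p = 0.0118).

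COL4A1 and COL4A2, the chains of the type IV trimer found in nearly all basement membranes, were both higher in progenitors. COL4A1 had 11.5 ± 2.13 kb in progenitors against 9.26 ± 3.96 kb in neurons, a difference of 0.32 ± 0.09 (adjusted p = 0.0128). COL4A2 had 11.4 ± 2.39 kb in progenitors against 8.70 ± 3.09 kb in neurons, a difference of 0.36 ± 0.10 (adjusted p = 0.00891). For COL4A1 the neuron libraries were the higher ones at day 40, and progenitors the higher ones at each later day. At day 120 COL4A1 had 12.2 and 6.93 kb in progenitors and 5.22 and 5.70 kb in neurons, a difference of 0.79 ± 0.18 (adjusted p = 0.00856), whereas at day 40 it had 11.6 and 11.5 kb in progenitors and 15.6 and 14.8 kb in neurons, a difference of -0.05 ± 0.18 (adjusted p = 0.904). The change in this difference between early and late days was not called (adjusted p = 0.134). The call over all days ended without scaling, for both genes, and for COL4A1 also with a pseudocount of 2000, a flank of 5 kb or no flank.

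The DNA between COL4A1 and COL4A2, where the genes start 126 bases apart, had a peak in all 16 libraries. It is shown as a start that both populations had open, beside starts that differed, and how much of it was open was not compared. The sequence is RefSeq's for GRCh38.p14, 250 bases before to 50 after the listed COL4A2 start, on the plus strand (chr13:110307034-110307333), with a GC box (GGGCGG) and a CCAAT box in capitals.
COL4A2 start: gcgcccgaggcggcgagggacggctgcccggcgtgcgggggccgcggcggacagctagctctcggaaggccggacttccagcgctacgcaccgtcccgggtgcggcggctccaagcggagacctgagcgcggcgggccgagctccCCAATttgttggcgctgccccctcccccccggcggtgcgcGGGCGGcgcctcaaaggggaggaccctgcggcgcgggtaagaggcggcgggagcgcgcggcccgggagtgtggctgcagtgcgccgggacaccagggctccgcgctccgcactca
In the windows, COL4A1 had 6.54 kb in progenitors against 5.77 kb in neurons over the gene body and 4.93 kb in progenitors against 3.49 kb in neurons in the flanks. A region inside COL4A1, 127 kb from its start (chr13:110179500-110180247), had a peak in 8 of 8 progenitor and 0 of 8 neuron libraries (Fisher adjusted p = 0.0118), and a region inside COL4A2, 135 kb from its start (chr13:110442599-110443940), in 8 of 8 progenitor and 1 of 8 neuron libraries (adjusted p = 0.0323).

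COL8A1, a short-chain network collagen of vessel walls, had 6.41 ± 1.9 kb in progenitors against 4.18 ± 1.06 kb in neurons, a difference of 0.48 ± 0.12 (adjusted p = 0.00478). This call ended without scaling, with the difference still above 0. The remaining network-forming genes, COL8A2 and COL10A1, were not called.

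COL28A1 (chromosome 7, 7338194 to 7543870), which encodes a collagen with von Willebrand factor A domains and is known in mice from peripheral nerve, had the highest difference of all 44 loci. Progenitor windows held 5.63 and 6.07 kb at day 40, 6.98 and 6.61 kb at day 60, 6.52 and 6.73 kb at day 90, and 7.29 and 3.56 kb at day 120. Neuron windows held 7.51 and 4.73 kb at day 40, 2.75 and 1.44 kb at day 60, 0.841 and 3.59 kb at day 90, and 0.701 and 0.475 kb at day 120. The populations overlapped at day 40 and were apart at day 60, day 90 and day 120. The difference was 1.32 ± 0.16 over all days (limma adjusted p = 2.04e-06), and 0.30 ± 0.32 at day 40 (adjusted p = 0.638), 1.26 ± 0.32 at day 60 (adjusted p = 0.0205), 1.27 ± 0.32 at day 90 (adjusted p = 0.0338) and 2.46 ± 0.32 at day 120 (adjusted p = 6.56e-05). The day 90 value was 0.47 without neuron replicate 1 (adjusted p = 0.520) and 2.08 without neuron replicate 2.

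Of the 21 regions in the COL28A1 window 3 were called, all in the direction of progenitors, where 3.06% of all regions tested were. None of 21 was present in at least 4 more neuron than progenitor libraries, and the share of all regions for this was not determined. The same peaks gave the difference of the locus, so these counts are no separate support. The region past the far end of the gene (chr7:7329043-7329801) had a peak in 8 of 8 progenitor and 0 of 8 neuron libraries (Fisher adjusted p = 0.0118). The regions inside the gene, 45.3 and 139 kb from the listed start (chr7:7489718-7490527 and chr7:7396169-7397239), each had a peak in 7 of 8 progenitor and 0 of 8 neuron libraries (adjusted p = 0.0323). The 300 bases around the listed start had a peak in 4 of 8 progenitor and 0 of 8 neuron libraries, which for the window of 1 kb gave a Fisher adjusted p of 0.523. They are printed because this was among the 3 starts of called loci that differed most in the number of libraries, on the minus strand (chr7:7535824-7536123), with a CCAAT box and the SOX core motif (ATTGTT, here on the opposite strand as AACAAT) in capitals.
COL28A1 start: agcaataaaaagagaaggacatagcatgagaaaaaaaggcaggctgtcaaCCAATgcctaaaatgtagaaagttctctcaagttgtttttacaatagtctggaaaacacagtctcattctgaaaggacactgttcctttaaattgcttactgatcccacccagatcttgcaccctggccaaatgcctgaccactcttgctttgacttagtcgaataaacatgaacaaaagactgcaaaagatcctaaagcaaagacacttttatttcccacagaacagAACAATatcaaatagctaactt
The other beaded-filament and anchoring genes, COL6A1, COL6A2, COL6A3, COL6A5, COL6A6 and COL7A1, were not called over all days.

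Among the transmembrane collagens the clearest locus was COL17A1 (chromosome 10, 104031286 to 104085880), whose product is part of hemidesmosomes, the junctions of epithelial cells with the basement membrane. It had 2.97 and 2.99 kb in progenitors at day 40, 2.46 and 3.20 kb at day 60, 2.58 and 2.77 kb at day 90, and 2.91 and 2.21 kb at day 120. In neurons it had 0.922 and 2.25 kb at day 40, 0.608 and 0.490 kb at day 60, 1.27 and 0.455 kb at day 90, and 1.05 and 0.621 kb at day 120. Neuron day 40 replicate 2, at 2.25 kb, was the only neuron library above any progenitor library. After scaling, every progenitor value exceeded every neuron value (8 of each), which held for 1.31% of all genes and for no other collagen gene. The difference was 1.19 ± 0.19 (limma adjusted p = 5.46e-05).

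None of the 16 libraries had a peak within 1 kb of the listed COL17A1 start. Inside the gene there were 2.59 kb in progenitors and 0.508 kb in neurons, and in the flanks 0.171 kb in progenitors and 0.450 kb in neurons. Regions 8.27 and 51.6 kb from the start (chr10:104076561-104077606 and chr10:104032074-104034270) each had a peak in 8 of 8 progenitor and 2 of 8 neuron libraries, and a region 17.8 kb from it (chr10:104066283-104068035) in 7 of 8 progenitor and 1 of 8 neuron libraries. Their adjusted p-values were 0.0800, 0.0800 and 0.103, so none of them was called by itself. A region in the flank, over the neighbouring gene SLK (chr10:104028106-104028629), had a peak in 0 of 8 progenitor and 6 of 8 neuron libraries, and it was not called either (adjusted p = 0.0800).

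COL13A1, a transmembrane collagen of the neuromuscular junction, went the other way, with 6.58 ± 2.65 kb in progenitors and 8.50 ± 2.93 kb in neurons and a difference of -0.43 ± 0.10 (adjusted p = 0.00307), a call that ended without scaling. The 300 bases around its listed start were covered in 5 of 8 progenitor and 0 of 8 neuron libraries, although within 1 kb of the start 7 of 8 progenitor and 8 of 8 neuron libraries had a peak. They are shown as another of those 3 starts, here with start and locus in opposite directions (plus strand, chr10:69801656-69801955), with a TATAAA motif near the upstream end in capitals.
COL13A1 start: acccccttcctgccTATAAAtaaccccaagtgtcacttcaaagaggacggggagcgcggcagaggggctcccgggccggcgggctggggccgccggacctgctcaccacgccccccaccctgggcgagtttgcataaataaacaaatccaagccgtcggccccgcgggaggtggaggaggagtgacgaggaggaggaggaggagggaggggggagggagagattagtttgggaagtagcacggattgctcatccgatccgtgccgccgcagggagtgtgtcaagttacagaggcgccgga
COL25A1, a neuronal transmembrane collagen named for its part in amyloid plaques, had 13.0 ± 4.49 kb in progenitors against 12.5 ± 2.57 kb in neurons and was not called as a locus. It nevertheless held called regions of both kinds. A region 155 kb from its start (chr4:109146248-109147313) had a peak in 8 of 8 progenitor and 0 of 8 neuron libraries (Fisher adjusted p = 0.0118). A second, 27 kb from the start (chr4:109274854-109275631), had 8 of 8 progenitor and 1 of 8 neuron libraries, and another (chr4:109114168-109115223) had 0 of 8 progenitor and 7 of 8 neuron libraries (adjusted p = 0.0323 for both).

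**Figure D3:**
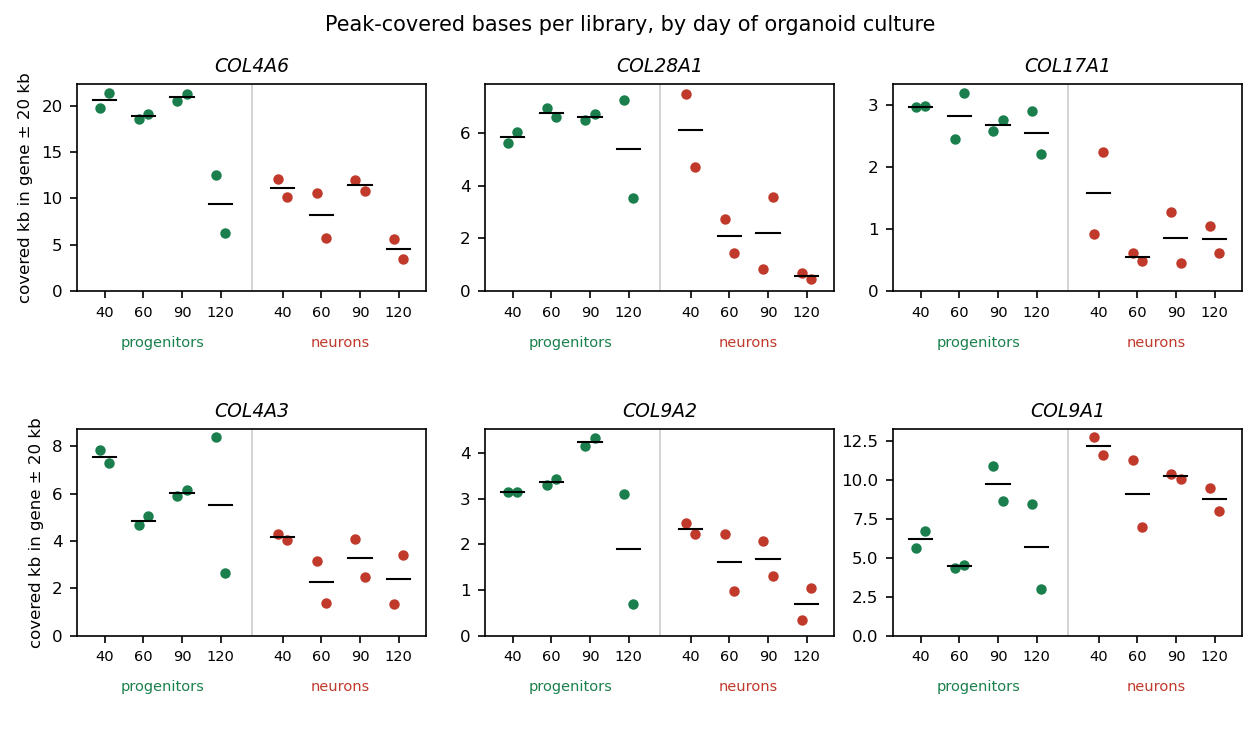
Covered kb in the window of 6 collagen genes for each library, by day, with progenitors (green) left of neurons (red) in each panel; points are libraries and black bars the means of 2. COL4A6, COL28A1, COL17A1, COL4A3 and COL9A2 were higher in progenitors and COL9A1 lower, and the lower of the day 120 progenitor values of COL28A1, at 3.56 kb, belongs to replicate 2.

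Type IX collagen, a FACIT collagen of cartilage fibrils made of the products of COL9A1, COL9A2 and COL9A3, had a different pattern at each of its genes. COL9A2 (chromosome 1, 40300489 to 40317286) was higher in progenitors, with 3.16 and 3.16 kb at day 40, 3.31 and 3.44 kb at day 60, 4.15 and 4.33 kb at day 90, and 3.11 and 0.687 kb at day 120, against 2.46 and 2.23 kb, 2.22 and 0.988 kb, 2.07 and 1.31 kb, and 0.338 and 1.04 kb in neurons at those days. Only progenitor day 120 replicate 2 lay below any neuron library. The difference was 0.78 ± 0.16 (limma adjusted p = 0.000836), and all the covered bases of the window lay in the gene body. COL9A3 had 6.02 ± 2.1 kb in progenitors against 5.89 ± 1.44 kb in neurons and was not called.

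COL9A1 (chromosome 6, 70215061 to 70303084) was lower in progenitors. Its window held 5.66 and 6.73 kb in progenitors at day 40, 4.36 and 4.54 kb at day 60, 10.9 and 8.65 kb at day 90, and 8.47 and 2.97 kb at day 120. In neurons it held 12.8 and 11.6 kb at day 40, 11.3 and 6.99 kb at day 60, 10.4 and 10.1 kb at day 90, and 9.50 and 8.05 kb at day 120. The unscaled values overlapped at day 90 and day 120, but after scaling all 8 progenitor libraries lay below all 8 neuron libraries, which held for 0.565% of all genes and for no other collagen gene. The difference was -0.71 ± 0.09 (limma adjusted p = 2.68e-06).

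At the start of COL9A1 the direction was the opposite. The gene has 2 listed starts, and the 300 bases around the inner of them (chr6:70283148-70283447, minus strand) were covered in 8 of 8 progenitor and 2 of 8 neuron libraries, while those around the outer were covered in none of 16. Within 1 kb of either start 8 of 8 progenitor and 4 of 8 neuron libraries had a peak (Fisher's exact test, p = 0.0769, adjusted p = 0.523). The inner start, whose number of libraries differed most among those 3, is shown with a CCAAT box in capitals.
COL9A1 inner start: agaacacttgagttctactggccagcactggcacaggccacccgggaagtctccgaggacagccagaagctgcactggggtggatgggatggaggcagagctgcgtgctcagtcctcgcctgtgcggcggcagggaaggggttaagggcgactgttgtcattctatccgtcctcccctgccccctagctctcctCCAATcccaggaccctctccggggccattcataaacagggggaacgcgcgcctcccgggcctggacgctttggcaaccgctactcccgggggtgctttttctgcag
Next to this start, a region 1.49 kb away (chr6:70284685-70286552) had a peak in 3 of 8 progenitor and 8 of 8 neuron libraries, and a region 17.7 kb away (chr6:70264012-70265471) in 1 of 8 progenitor and 7 of 8 neuron libraries. Neither passed the threshold over all regions (adjusted p = 0.167 and 0.103).

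COL19A1, which lies 2592 bases from COL9A1 and whose product is a FACIT collagen known in mice from interneurons and synapse formation, was also lower, with 12.5 ± 4.67 kb in progenitors and 14.4 ± 2.67 kb in neurons and a difference of -0.33 ± 0.09 (adjusted p = 0.0111). Inside it lay the longest called region at any collagen locus, 2271 bases long and 47.2 kb from its start (chr6:69913779-69916049), with a peak in 8 of 8 progenitor and 0 of 8 neuron libraries (Fisher adjusted p = 0.0118), which is against the direction of the locus. The locus call ended without scaling and with a flank of 5 kb or none. COL21A1, a FACIT collagen of vessel walls, was higher, with 9.89 ± 3.19 kb in progenitors and 6.39 ± 1.44 kb in neurons and a difference of 0.47 ± 0.12 (adjusted p = 0.00585). A region inside it (chr6:56335440-56336177) had a peak in 8 of 8 progenitor and 0 of 8 neuron libraries (Fisher adjusted p = 0.0118), and with lists of equal length the locus difference turned to -0.25. Its call also ended without scaling. COL16A1, a FACIT collagen found with fibrillin, had a difference of -0.29 ± 0.10 (adjusted p = 0.0359), and its call ended in 9 of 16 fits that left out 1 library, remaining without progenitor day 40 replicate 1, day 60 replicate 1 or either day 120 replicate, and without neuron day 40 replicate 1, day 60 replicate 2 or day 90 replicate 1. It also ended with a pseudocount of 2000, without scaling, with lists of equal length, without flanks and for the number of peaks.

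Among the fibrillar collagens COL3A1 (chromosome 2, 188974373 to 189012746), the type III chain of skin, vessels and meninges, stood apart. In progenitors 7 of 8 libraries had no peak in its window, and the other, day 60 replicate 2, had 0.574 kb in the flank. In neurons the window held 0.224 and 0 kb at day 40, 1.29 and 0.329 kb at day 60, 1.46 and 1.60 kb at day 90, and 1.13 and 1.23 kb at day 120. All 8 progenitor libraries were at 0 over the gene body, where neurons had 0.508 ± 0.436 kb (SD, n = 8). The difference was -1.24 ± 0.25 (limma adjusted p = 0.000697). It depends on the pseudocount at such low values. With 100 bases it reached -2.58, and with 2000 bases -0.51, where the limma adjusted p was 0.0539. The locus passed the filter on low values only through its neuron libraries, where it was high. Its p-values, here and by day or over time, are therefore no separate support for these covered lengths. A region of 839 bases inside the gene (chr2:188983650-188984488) had a peak in 0 of 8 progenitor and 6 of 8 neuron libraries (Fisher adjusted p = 0.0800), and neither end of the gene had a peak within 1 kb in any library.

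The type I genes, which encode the main collagen of bone and skin, were not called. COL1A1 had 2.49 ± 1.06 kb in progenitors against 1.92 ± 1.42 kb in neurons (difference 0.34 ± 0.16, adjusted p = 0.119), and COL1A2 had 3.19 ± 1.33 kb in progenitors against 2.98 ± 2.45 kb in neurons (difference 0.22 ± 0.18, adjusted p = 0.426). With lists of equal length these differences turned to -0.25 and -0.08. COL24A1, a fibrillar collagen of developing bone and cornea, was lower, with 4.42 ± 1.67 kb in progenitors and 6.08 ± 1.89 kb in neurons and a difference of -0.51 ± 0.12 (adjusted p = 0.00404). Its call ended without scaling and with a flank of 5 kb. COL5A3, a type V chain, was higher by 0.45 ± 0.16 (adjusted p = 0.0423), and its call ended in 13 of 16 fits without 1 library, remaining without progenitor day 120 replicate 1, neuron day 40 replicate 2 or neuron day 60 replicate 1. It was 0.28 without neuron day 40 replicate 1, and the call also ended with a pseudocount of 2000, without scaling, with a flank of 5 kb or none and for the number of peaks.

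COL27A1 was level as a locus, with 14.4 ± 3.33 kb in progenitors and 13.8 ± 3.65 kb in neurons, yet it held neighbouring regions of opposite kinds. A region 58.5 kb from its start (chr9:114214002-114215021) had a peak in 0 of 8 progenitor and 8 of 8 neuron libraries (Fisher adjusted p = 0.0118), a pattern found for 0.296% of all regions tested. The next called region (chr9:114215888-114216883), 866 bases farther on, had a peak in 7 of 8 progenitor and 0 of 8 neuron libraries (adjusted p = 0.0323).

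The multiplexins are basement membrane collagens that carry heparan or chondroitin sulfate. COL15A1 was lower, with 3.56 ± 1.33 kb in progenitors and 4.50 ± 1.12 kb in neurons and a difference of -0.40 ± 0.14 (adjusted p = 0.0373), which ended in 10 of 16 fits without 1 library, with a pseudocount of 2000, without scaling and with a flank of 5 kb or none, and turned to 0.05 for the number of peaks. The call remained without progenitor day 40 replicate 2, day 60 replicate 2, day 90 replicate 1 or day 120 replicate 2, and without neuron day 60 replicate 2 or day 120 replicate 1. COL26A1 was higher, with 7.95 ± 2.26 kb in progenitors and 5.76 ± 1.92 kb in neurons and a difference of 0.36 ± 0.10 (adjusted p = 0.00985), a call that ended without scaling, with lists of equal length and with a −log10 q of at least 2. COL18A1, the source of endostatin, was not called between the populations.

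Across all collagen windows there were 1102 regions, of which 642 could be tested. A peak was more frequent in progenitors at 21 (3.27%, where 3.06% of all regions tested were called) and in neurons at 3 (0.467%, against 1.27% of all regions). Both shares count regions that may lie in the same gene. The 24 regions lay at 17 of the 44 genes, 22 of them inside a collagen gene. Of the 18 at genes with a listed start, 0 lay within 1 kb of it, and the distance ranged from 7.21 to 206 kb with a median of 70.8 kb. A peak in 8 of 8 progenitor and 0 of 8 neuron libraries was found at 6 regions, where 1.02% of all regions tested had that pattern, in COL4A1, COL4A3, COL19A1, COL21A1, COL25A1 and next to COL28A1. Calls rested on the presence of any peak. When peaks had to cover 50% of a region, 1 of 585 regions tested was called in progenitors and 0 in neurons. Of all 176479 regions tested that way, 714 were called in progenitors and 155 in neurons. With lists of equal length 5 of 224 regions tested were called in progenitors and 4 in neurons, against 3122 and 1158 of all 72845. The progenitor share then lay below that of all regions, and the neuron share above it. Without progenitor day 120 replicate 2, 33 of 623 were called in progenitors, against 8711 of all 177491. Regions called in neurons numbered 5 of 588 without neuron day 40 replicate 1, against 3093 of all 166988. They numbered 7 of 598 without neuron day 40 replicate 2, against 3954 of all 168038.

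**Figure D4:**
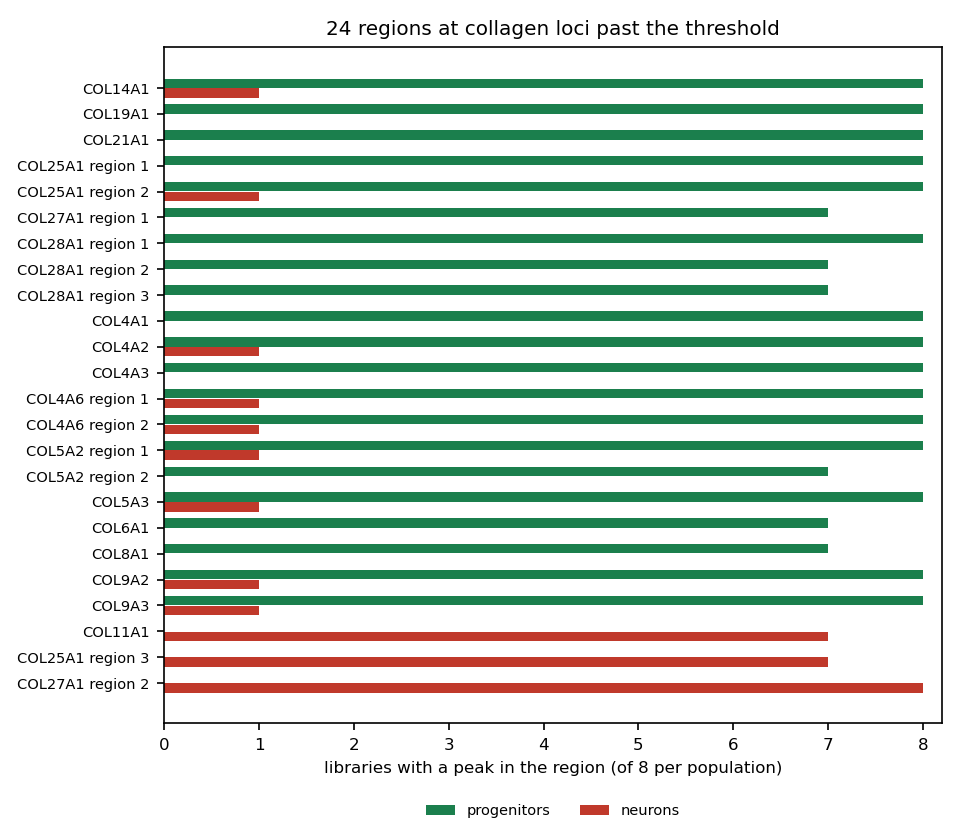
Number of libraries with a peak, of 8 progenitor (green, upper bar) and 8 neuron (red, lower bar) libraries, at the 24 regions called at collagen loci; the axis starts at 0. The upper 21 regions have 7 or 8 progenitor libraries and at most 1 neuron library, and the lower 3 have 0 progenitor libraries and 7 or 8 neuron libraries.

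A peak within 1 kb of a listed start, or of either gene end for the 12 collagen genes without a listed start, was present in all 16 libraries for 15 of 44 collagen genes (34.1%) and for 59.9% of all genes, a contrast that was not tested. Another 6 of the 44, COL2A1, COL3A1, COL5A3, COL6A3, COL16A1 and COL17A1, had none in any library. So did 3487 of all 19974 genes, which is not a smaller share. Of the 20 genes that could be tested this way, 0 were called (Fisher's exact test), where 0.447% of all genes tested were called in progenitors and 0.103% in neurons. At an unadjusted p under 0.05 there were 2, both without a listed start, so that the peak may lie at either end of the gene: COL1A2 with 7 of 8 progenitor and 1 of 8 neuron libraries (adjusted p = 0.214) and COL22A1 with 7 of 8 progenitor and 2 of 8 neuron libraries (adjusted p = 0.411). In the 44 listed collagen promoters, the letters GGGCGG or their reverse complement stood in 24, against 45.0% of all 35116 promoters, CCAAT in 14 against 34.6%, and TATAAA in 8 against 11.5%. CACCTG, an E-box, stood in 5 against 20.6%, and ATTGTT, the SOX core, in 3 against 10.1%. These matches are letters on either strand, and a match is not a site of binding.

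Day by day, with 2 libraries against 2 and the spread pooled over all groups, fewer loci passed. At day 40 there were 5 higher and 2 lower in progenitors (of all genes, 4.37% and 2.27%, 6.64% in all), with COL6A6 (difference 1.72), COL4A6 (1.19), COL4A3 (1.12), COL21A1 (1.01) and COL4A5 (0.95) higher and COL13A1 (-0.83) and COL9A1 (-0.60) lower. At day 60 there were again 5 higher and 2 lower (of all genes, 2.68% and 3.35%, 6.04% in all), with COL17A1 (1.38), COL28A1 (1.26), COL4A6 (0.94), COL8A1 (0.84) and COL26A1 (0.65) higher and COL9A1 (-1.21) and COL24A1 (-1.06) lower. At day 90 COL28A1 (1.27) was higher and COL3A1 (-2.35) lower (of all genes, 1.10% and 1.35%, 2.45% in all). At day 120 there were 6 higher and 4 lower (of all genes, 2.87% and 4.0%, 6.87% in all), with COL28A1 (2.46), COL17A1 (1.28), COL4A3 (1.06), COL4A6 (1.01), COL4A1 (0.79) and COL4A2 (0.77) higher and COL3A1 (-1.67), COL15A1 (-0.99), COL9A1 (-0.65) and COL19A1 (-0.63) lower. COL4A6 and COL9A1 were called at 3 of the 4 days, as was COL28A1, and no locus was called at all 4.

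These counts rest on few libraries. Of the 26 calls by day, 4 were kept with any 1 library left out, those of COL4A6 at days 40 and 60, COL9A1 at day 60 and COL28A1 at day 120. At day 40 COL6A6 was 0.93 and COL4A5 was 0.48 without neuron replicate 2, and at day 60 COL8A1 was 0.52 without neuron replicate 1. At day 120 COL3A1 was -1.06 and COL15A1 -0.50 without progenitor replicate 1, and COL17A1 was 0.85 and COL19A1 -0.33 without progenitor replicate 2. COL4A3 at day 120 was 0.43 without neuron replicate 1 and 1.69 without neuron replicate 2. All these values but the last missed the threshold. At day 40 the 7 calls became 2 without progenitor replicate 1, 1 without progenitor replicate 2 and 3 without neuron replicate 2. At day 60 the 7 became 3 without progenitor replicate 1, 2 without progenitor replicate 2, 2 without neuron replicate 1 and 3 without neuron replicate 2. At day 90 the 2 became 0 without either progenitor replicate or neuron replicate 1, and 1 without neuron replicate 2. At day 120 the 10 became 5 without progenitor replicate 2, 2 without neuron replicate 1 and 5 without neuron replicate 2.

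Change over time was called at 2 collagen loci in progenitors and at 9 in neurons, and the difference between those changes was called at none (limma, with 7 at an unadjusted p under 0.05). Late here is days 90 and 120 and early is days 40 and 60. In neurons 9 loci changed (20.5%, where 5.67% of all genes did), 3 of them higher late and 6 lower (of all genes, 3.30% and 2.37%). COL18A1, a multiplexin, had 3.64 and 2.85 kb at day 90 and 1.91 and 1.29 kb at day 120 in neurons, against 8.08 and 11.5 kb at day 40 and 5.5 and 3.79 kb at day 60, a difference of -1.10 ± 0.17 (limma adjusted p = 0.000498). With lists of equal length it was -1.11 and no longer called (adjusted p = 0.172). In unscaled kb all 4 late neuron libraries of COL18A1 lay below all 4 early ones, and the share of all genes that do so was not determined. Unscaled kb also follow the length of the lists, which in neurons reached 80.3 Mb late and 104 Mb early. This order is therefore no separate support for the change. COL28A1 fell by 1.08 ± 0.23 (adjusted p = 0.0055), a change that was -0.68 without neuron day 90 replicate 1, still called (adjusted p = 0.0493), and that turned to 0.24 with lists of equal length. COL5A1 (-0.77), COL22A1 (-0.63), COL23A1 (-0.61) and COL4A1 (-0.50) were lower as well.

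COL3A1 (1.37 ± 0.35, adjusted p = 0.0192), its neighbour COL5A2 (0.84 ± 0.20, adjusted p = 0.0108), a type V chain, and COL19A1 (0.60 ± 0.13, adjusted p = 0.00706) were higher in late neurons. The covered bases of COL5A2 in neurons were 8.83 and 12.3 kb at day 90 and 8.28 and 5.81 kb at day 120, against 8.71 and 3.67 kb at day 40 and 7.32 and 3.92 kb at day 60, so the unscaled values overlapped. The amount called moved with the day as well: neuron lists covered 55.7 to 80.3 Mb late, against 54.9 to 104 Mb early. Without scaling 1 of the 9 neuron loci was called. The 9 calls became 4 without day 40 replicate 2 or day 120 replicate 1, and 5 without day 120 replicate 2 or either day 90 replicate. The COL5A2 call was lost without day 40 replicate 2, day 90 replicate 2 or day 120 replicate 1, and those of COL18A1, COL28A1 and COL19A1 were kept in all 16 fits without 1 library. Leaving out 1 neuron library ended the calls of COL5A1 (day 40 replicate 2, day 60 replicate 1, day 90 replicate 1, day 120 replicate 2), COL4A1 (day 40 replicate 2, day 60 replicate 2, day 90 replicate 2, day 120 replicate 1) and COL3A1 (all but day 40 replicate 1 and day 60 replicate 1). The same ended those of COL22A1 (all but day 60 replicate 1 and day 90 replicate 2) and COL23A1 (all but day 40 replicate 1).

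In progenitors 2 loci changed (4.55%, against 2.91% of all genes), 1 higher late and 1 lower (of all genes, 1.44% and 1.46%). COL18A1 was lower late, with 7.52 and 5.05 kb at day 90 and 3.10 and 0.843 kb at day 120, against 5.74 and 6.22 kb at day 40 and 6.08 and 7.21 kb at day 60, a difference of -0.71 ± 0.17 (limma adjusted p = 0.0222). The low values were those of day 120. The call ended with a pseudocount of 2000, without scaling, with lists of equal length and for the number of peaks. COL9A1 was higher late by 0.51 ± 0.13 (adjusted p = 0.0278), which ended under those 4 alternatives and with a flank of 5 kb or none. COL12A1, a FACIT collagen of tendon, at -0.49 ± 0.15 (adjusted p = 0.0718), and COL4A6, at -0.40 ± 0.13 (adjusted p = 0.0870), missed the threshold. COL9A1 lost its call without any of the 6 progenitor libraries of days 40, 60 and 90, and COL18A1 without day 40 replicate 1 or 2, day 60 replicate 2 or day 90 replicate 2. The 2 calls became 0 without day 40 replicate 1 or 2, day 60 replicate 2 or day 90 replicate 2, 1 without day 90 replicate 1 and 6 without day 120 replicate 2.

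**Figure D5:**
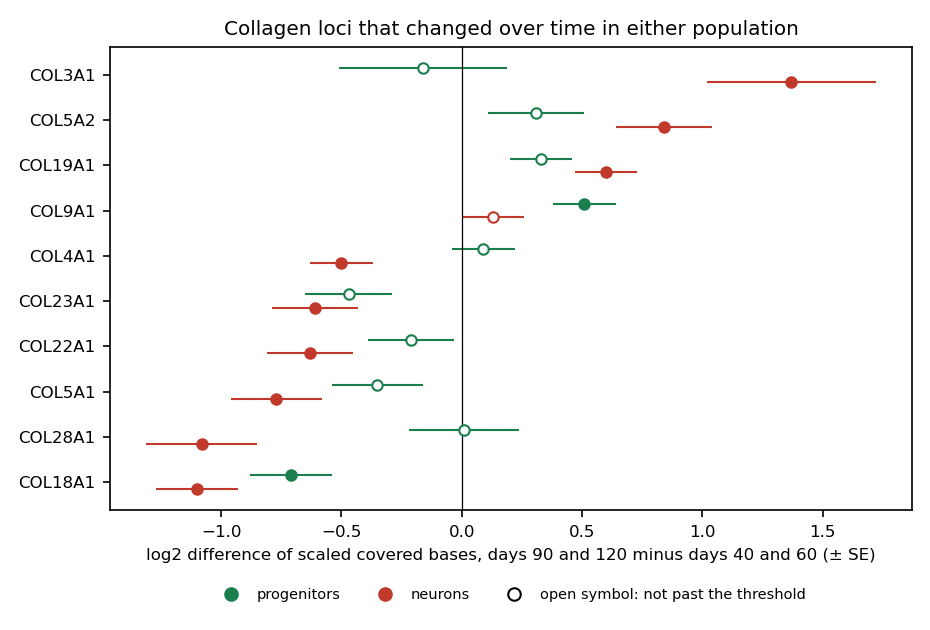
Change in covered bases from early to late days, on the log2 scale after scaling, at the 10 collagen loci that were called in either population, with progenitors (green) above neurons (red) for each gene. Points are limma estimates with SE, and filled symbols passed the threshold: 2 in progenitors and 9 in neurons, with COL18A1 lower late in both.

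The late minus early change was compared between the populations in the same fit. Of the 44 loci 0 were called (limma), against 0.629% of all genes (0.261% higher and 0.368% lower), and 7 had an unadjusted p under 0.05. The smallest adjusted p-values were those of COL28A1 (1.09 ± 0.32, adjusted p = 0.121), COL4A1 (0.59 ± 0.18, adjusted p = 0.134), COL1A2 (1.12 ± 0.36, adjusted p = 0.152) and COL3A1 (-1.53 ± 0.49, adjusted p = 0.153), where a positive value means a more positive change in progenitors. COL1A2 had 4.94 and 4.44 kb at day 90 and 4.41 and 1.95 kb at day 120 in progenitors, against 2.87 and 3.46 kb at day 40 and 1.34 and 2.11 kb at day 60. In neurons it had 2.79 and 1.65 kb at day 90 and 1.08 and 1.86 kb at day 120, against 6.82 and 6.86 kb at day 40 and 0.833 and 1.94 kb at day 60. With 1 library left out the count stayed at 0 or, without progenitor day 120 replicate 1 or 2, neuron day 60 replicate 1 or neuron day 90 replicate 2, was 1.

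Genes whose products bind, modify or cleave collagen were set beside the collagen loci. Of 16 basement membrane partners 4 were higher in progenitors and 0 lower (median 0.12). HSPG2, which encodes perlecan, had 5.66 ± 2.11 kb in progenitors against 2.41 ± 1.14 kb in neurons (difference 1.05 ± 0.15, adjusted p = 1.95e-05). LAMA1, a laminin chain, had 9.69 ± 2.80 kb in progenitors against 4.79 ± 1.78 kb in neurons (0.91 ± 0.11, adjusted p = 2.85e-06), and LAMA3 (0.48) and LAMA4 (0.39) were higher too. Of 12 collagen receptors 4 were higher and 0 lower (median 0.31), the integrin genes ITGA1 (0.40), ITGA2 (0.32) and ITGA11 (0.31) and the immune receptor gene LAIR1 (0.58).

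The enzymes were divided. Of 16 modifying enzymes and chaperones 2 were higher, the prolyl hydroxylase gene P3H2 (0.81) and the galactosyltransferase gene COLGALT2 (0.48), and P4HA3 (-0.73) was lower (median -0.01). Of 15 processing and cross-linking enzymes LOX, the lysyl oxidase, was higher (0.75), and the procollagen proteinase genes ADAMTS14 (-0.71) and BMP1 (-0.49) were lower (median -0.12). Of 15 degrading proteases and inhibitors 5 were higher and 2 lower (median 0.32), among them the matrix protease genes MMP2 (1.03) and FAP (0.83) higher and MMP9 (-0.71) and MMP1 (-0.90) lower. The background for all these counts is the 9.90% higher and 11.1% lower of all genes.

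Other cells that make collagen could be present in a sort, so their markers were set beside the collagen loci. Of 10 fibroblast and mesenchymal markers 2 were higher in progenitors, PRRX1 (0.63) and TWIST1 (0.37), and DCN (-0.64) was lower (median -0.02), with a summed 348 to 465 bases per covered Mb in progenitor and 351 to 451 in neuron libraries, and LUM at 0 in some libraries of both. Of 10 mural and endothelial markers 2 were higher, PDGFRB (0.60) and KDR (0.66), and 0 lower (median 0.01), with a summed 280 to 390 bases per covered Mb in progenitor and 277 to 412 in neuron libraries. Of 8 choroid plexus markers 2 were higher, TTR (0.88) and OTX2 (0.48), and 0 lower (median 0.42), with a summed 218 to 376 bases per covered Mb in progenitor and 141 to 282 in neuron libraries. FOLR1, CLIC6 and KCNJ13 were at 0 in some libraries of both populations and AQP1 in some neuron libraries. Their part in the collagen differences was not tested, and in bulk libraries fewer cells of a type and less open chromatin per cell cannot be told apart.

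Of the 18 loci called between the populations, 6 kept the call in every alternative tried and with any 1 library left out: COL4A6, COL28A1, COL9A1, COL17A1, COL4A3 and COL9A2. With any 1 library left out 15 of 18 kept it, COL16A1, COL15A1 and COL5A3 being the exceptions, and 16 of 18 kept their direction throughout.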

How the data were processed

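Open chromatin was measured by ATAC-seq in 16 libraries, grouped by the labels for stage and cell type and numbered by title. Per the submitters' processing notes, the authors worked on hg38 with MACS2 2.1.2, SAMtools 1.9, Picard, BWA 0.7.17 and Trim Galore 0.5.0, and each library has its own list of broad peaks. The deposited lists give a score (column 5), a ratio, the fold enrichment (column 7), and −log10 p-values and −log10 q-values (columns 8 and 9), which are the authors' own and served only to rank or filter peaks within a list. How duplicates and the Tn5 offset were handled is not given in the sources used here. Depth is unknown, so no counting interval is given, and a list that is longer for technical reasons covers more of every locus.

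Genes, promoters and their sequences came from RefSeq (GRCh38.p14, the coordinates of hg38), which listed a start for 32 of 44 collagen genes. Coverage was log2(bases + 500) minus log2 of the total covered bases, over genes that reached 500 covered bases in 2 or more libraries, and limma 3.58.1 (R 4.3.3, trended prior) fitted 8 group means. With this pseudocount an empty locus scores higher where the list is short. Fisher's two-sided exact test, 8 against 8, was applied to regions found in 2 to 14 lists. All p-values were Benjamini-Hochberg adjusted. Both tests were checked on simulated data. Members and lists were chosen with earlier results of these data known. Genes were named by a rule: the 16 smallest adjusted p-values among called loci, 4 from each comparison over time, the type IV pairs and COL1A1, COL1A2 and COL3A1; COL15A1, COL5A3, the loci called at a day or over time, and loci with called regions or outlying starts were added after their values were seen. Sequences of starts were taken from a ranking of called loci by the difference in libraries with a peak there, except that of COL4A2, chosen after its values were seen. Alternatives were other pseudocounts, flanks, scalings, lists of equal length, a −log10 q of at least 2, the number of peaks, no filter, a replicate block and leaving out each library.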

Additional observations from a re-analysis of the deposited data

Results flagged for a closer look

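In groups of 8 libraries a value was singled out when its gap to the nearest other library exceeded Dixon's critical share of the range. Of 88 groups tested 13 met this, where chance gives about 1 in 20, and 8 of them fell on progenitor day 120 replicate 2, the library with the least covered DNA. In that library the covered length, low in each case, was 0.687 kb at COL9A2, 2.81 kb at COL21A1, 3.56 kb at COL28A1, 2.61 kb at COL26A1, 2.90 kb at COL2A1, 6.26 kb at COL4A2, 0.176 kb at COL1A1 and 1.65 kb at COL5A3. COL3A1 had 0.574 kb in progenitor day 60 replicate 2 and 0 in the other 7 progenitor libraries. COL7A1 had a high 4.22 kb in neuron day 60 replicate 1. COL6A5 had a high 2.88 kb in neuron day 40 replicate 1. In neuron day 40 replicate 2 COL17A1 had a high 2.25 kb and COL6A1 a high 4.92 kb. Without progenitor day 120 replicate 2 the calls between the populations were 11 higher and 7 lower, as with it.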

How the results depend on the processing

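Between the populations the 11 higher and 7 lower calls became 5 and 2 without scaling and the lower calls 4 with a pseudocount of 2000, and with 1 library left out they lay between 10 and 11 and between 5 and 7. At days 40, 60, 90 and 120 the 7, 7, 2 and 10 calls became 4, 4, 0 and 4 with a pseudocount of 2000, and 0, 1, 0 and 1 without scaling. The number of peaks gave 2 at day 60 and 6 at day 120, and no flank 6 at day 120. At day 90 there were 1 with a pseudocount of 100 or one in proportion to the total, 0 with a flank of 5 kb and 9 with lists of equal length. With 1 library left out the ranges were 1 to 10, 2 to 7, 0 to 2 and 2 to 10. Late minus early calls were 0 in progenitors with a pseudocount of 2000 or without scaling and 1 in neurons without scaling, with ranges of 0 to 6 in progenitors and 4 to 12 in neurons. Their difference gave 5 calls with lists of equal length, 1 at a −log10 q of at least 2, and 0 to 1 without 1 library. Regions called in progenitors were 1 at 50% cover and 5 with equal lists (21 to 33 without 1 library), those in neurons 0 at 50% cover (3 to 7), and gene starts or ends 2 with equal lists (0 to 0). The causes were not tested.

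Directions turned with equal lists for COL21A1 (-0.25), COL4A4 (-0.37), COL1A1 (-0.25), COL1A2 (-0.08) and, over time, COL28A1 in neurons (0.24) and between populations (-0.06). They turned with the number of peaks for COL15A1 (0.05), COL4A5 (-0.02) and COL12A1 over time in progenitors (0.04). COL4A5 also turned at a −log10 q of at least 2 (-0.01), without flanks (-0.25) and with 1 library left out (-0.03 to 0.20, below 0 without progenitor day 120 replicate 2 or neuron day 40 replicate 2). Of 65 gene results 56 kept their direction throughout.

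Whether replicate numbers pair the libraries could not be decided with 2 libraries per group. Deviations of same-numbered libraries correlated at -0.123, 0.214, 0.0643 and 0.157 from day 40 to day 120. A replicate block left 11 higher and 7 lower calls, gave 8, 7, 2 and 12 by day, and 2 for the difference over time, COL28A1 (adjusted p = 0.0328) and COL1A2 (adjusted p = 0.0284); COL9A1 at day 40 then had an adjusted p of 0.0512. Over pairs, a sign test with the replicate block called 0 regions in progenitors and 0 in neurons (57 at an unadjusted p under 0.05). The sign test could not call any here: its smallest p over all regions was 0.00781, and the smallest adjusted p was 0.32. Late minus early within a population could not be fitted with this block. With lists alone and no read counts, differences in depth between libraries could not be measured.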
